A study of Amaranthus palmeri with 48 samples.

Results

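The response of Palmer amaranth (Amaranthus palmeri) leaves to atrazine was read from 12 of the 48 libraries of the series, 6 from atrazine-treated and 6 from untreated leaves of the same batch. They were chosen by their titles, as the columns of batch 2 that carry the atrazine or the untreated code. The treated libraries came from plants numbered 5, 7 and 8 of a line labelled Resistant (title prefix KCTR) and plants numbered 5, 6 and 7 of a line labelled Susceptible (KSS). The untreated libraries carry the same numbers. Plants were grown from seed in a chamber at 32 °C by day and 22 °C by night, sprayed at a height of 10 to 12 cm and sampled 6 h after treatment. The labels give neither the dose nor an age, and they do not say whether equal numbers mark the same plant. The other 36 libraries, with 4 other herbicides and the untreated leaves of batches 1 and 3, served only for comparison. The question is which genes respond to atrazine in both lines alike, so the line entered the test as a block.

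Atrazine is a triazine that takes the plastoquinone site of the D1 protein of photosystem II and stops electron transport from water to the plastoquinone pool. In light, the blocked photosystem passes excitation to oxygen, and the leaf loses the supply of reductant and ATP for carbon fixation. Plants resist atrazine either through a changed D1 protein or by breaking the compound down, often by coupling it to glutathione. Palmer amaranth is a fast-growing broadleaf weed with C4 photosynthesis. The gene identifiers of the count table are not paired with names or functions in the sources used here, so no gene below has a known product, and the leaf tissue could not be checked against marker genes. For the same reason no sequence is shown. In leaf tissue as a whole, fewer cells of a type and less RNA per cell cannot be told apart.

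Each of the 12 libraries held 44999718 to 61752621 read counts, and 19352 of 26353 gene models passed the filter on low counts. Within the susceptible line, libraries 6 and 7 were closer to each other than to library 5. Untreated libraries 6 and 7 differed in 6.11% of their counts (the share that would have to move between genes to make both profiles equal), against 8.45% and 8.63% between each of them and library 5. After atrazine these values were 5.88%, 24.6% and 24.4%. Between atrazine libraries 6 and 7, 12 of the 14190 genes with a mean of 5 CPM (counts scaled to a common library size) or more differed at least 4-fold, against 975 and 934 for the pairs with library 5. Libraries 6 and 7 were kept as separate libraries, since their counts differed beyond sampling noise (a chi-square on fragments of 26.1 per gene untreated and 24.5 after atrazine, near 1 for noise alone). This shows only that they are not 1 library deposited under both numbers, and says nothing of whether the plants are separate. The counts of genes called in the tests of atrazine are also given without the susceptible libraries numbered 7. Counts by fold, of pairs, of separation and of overlap with other herbicides are not.

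Atrazine changed the expression of 10401 genes, 53.7% of the 19352 tested, in the comparison of 6 treated with 6 untreated libraries (edgeR quasi-likelihood test, Benjamini-Hochberg adjusted p under 0.05). Of these, 5435 genes (28.1%) rose and 4966 (25.7%) fell. The genes that rose had a median log2 change of 1.02 and the genes that fell one of -1.13, while the median over all genes tested was 0.04. A change of at least 2-fold was reached by 2768 risen and 2816 fallen genes, and one of at least 16-fold by 396 and 213. At least 64-fold changes were rarer still, with 52 risen and 13 fallen genes. Without the susceptible libraries numbered 7 the test called 9126 genes, 50.7% of them higher. With total counts in place of TMM scaling it called 10298, of which 46.6% were higher, so which direction held more genes depended on the scaling.

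The treated and the untreated leaves differed over much of their RNA. A treated library and the untreated library of the same line and number differed in 26.9 to 37.1% of their counts (6 pairs, median 29.2%). Untreated libraries of 1 line differed from each other in 6.11 to 17.2%, and untreated libraries of different lines in 9.74 to 16.5%. A principal component analysis of the 2000 genes that varied most put 62.5% of the variance on its first axis. On that axis the untreated libraries lay between -95.2 and -26.8 and the treated ones between 20.5 and 99, with no overlap. Treated susceptible plant 5 lay at 99 and treated resistant plants 5, 7 and 8 at 90.2, 71 and 74.7. Treated susceptible plants 6 and 7 lay apart from these, at 20.5 and 25.1. The genes that rose took 21.2 to 24.6% of the counts in untreated libraries and 45.3 to 55% in treated ones. The genes that fell went from 40.5 to 45.6% down to 15.4 to 21.2%, and the genes not called held 33.2 to 34.8% and 29.5 to 33.5%. Since the genes were called in these same libraries, these shares describe the size of the change and are not a further test.

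Among called genes with no overlap within either line, the largest gain in mean CPM was that of AmaPaChr01Ag024250. In untreated resistant plants 5, 7 and 8 it stood at 1040, 1430 and 1220 CPM, and after atrazine at 9440, 17300 and 11800 CPM. In susceptible plants 5, 6 and 7 the values were 871, 944 and 842 CPM untreated and 5080, 8780 and 9870 CPM after atrazine. Every treated library was above every untreated one, and the lowest treated value was that of susceptible plant 5. The log2 change was 3.27 ± 0.22 SE, a 9.66-fold rise (edgeR adjusted p = 1.3e-06), which took the gene from rank 74 to rank 1 by mean level. In untreated leaves of batch 3, however, it reached 2710 to 11100 CPM in resistant and 2710 to 6760 CPM in susceptible plants (1 scaling over all 48 libraries), which overlaps the atrazine libraries.

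**Figure D1:**
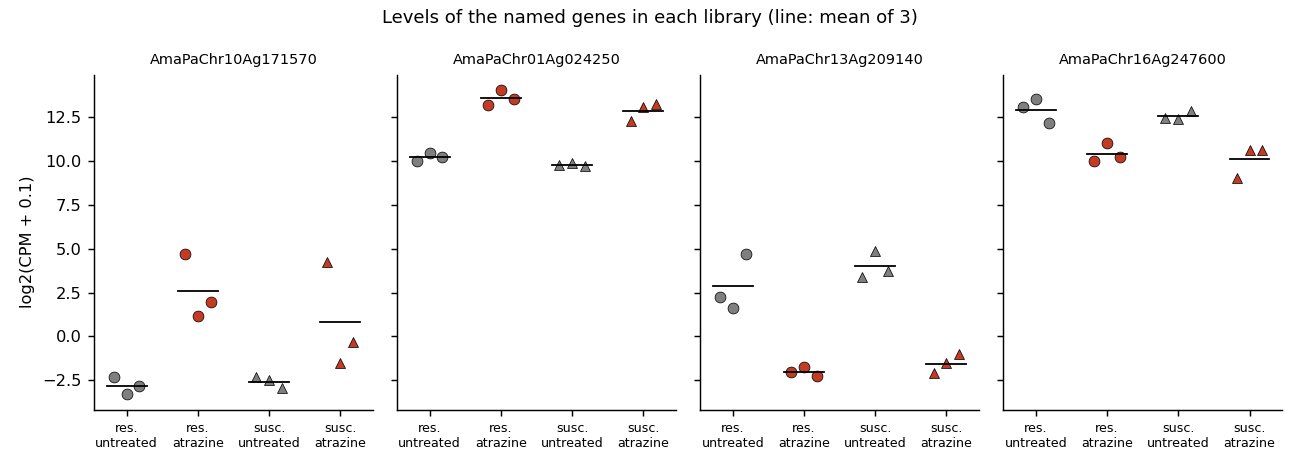
Levels of the 4 genes named for the common response, as log2(CPM + 0.1), in the 6 untreated (grey) and 6 atrazine-treated (red) libraries. Circles mark the resistant and triangles the susceptible line, with the mean of 3 as a line. The genes were chosen to have no overlap within either line, and AmaPaChr10Ag171570 shows the widest spread among treated libraries, from 0.246 to 25.4 CPM.

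AmaPaChr16Ag247600 had the largest loss in mean CPM among called genes with no overlap within either line. Untreated resistant plants 5, 7 and 8 held 8870, 12100 and 4570 CPM, and treated ones 1020, 2140 and 1210 CPM. Untreated susceptible plants 5, 6 and 7 held 5740, 5480 and 7390 CPM, and treated ones 526, 1610 and 1600 CPM. No treated library reached the lowest untreated value, and the gene went from rank 2 to rank 46. The log2 change was -2.43 ± 0.34 SE, or 5.38-fold lower (edgeR adjusted p = 0.00012). Its level in untreated leaves varied widely between batches, from 1380 to 12900 CPM in resistant plants of batch 1 and from 212 to 1020 CPM in susceptible plants of batch 3, which overlaps the treated libraries.

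The largest fold changes among named genes were in genes of lower abundance. AmaPaChr10Ag171570 stood at 0 to 0.0983 CPM in the 6 untreated libraries. After atrazine it was at 25.4, 2.12 and 3.73 CPM in resistant plants 5, 7 and 8, and at 19.1, 0.246 and 0.699 CPM in susceptible plants 5, 6 and 7. The plants numbered 5 of both lines thus held most of it. The log2 change was 7.13 ± 1.29 SE (edgeR adjusted p = 7e-04). It was 5.66 without treated susceptible plant 5, 6.24 without treated resistant plant 5, 6.53 with the plant number as a block and 8.15 against the untreated leaves of batch 1. AmaPaChr13Ag209140 fell from 4.73, 2.97 and 26.1 CPM in resistant and 10.2, 29.5 and 13.2 CPM in susceptible plants to 0.109 to 0.388 CPM in all 6 treated libraries. Its log2 change was -6.17 ± 0.64 SE (edgeR adjusted p = 1.6e-05), or -5.52 without untreated resistant plant 8, the second highest untreated library.

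Abundant genes were moved in both directions. Among the 100 genes with the highest mean over the 12 libraries, 31 rose, 44 fell and 25 were not called, against 28.1% higher and 25.7% lower over all genes tested, with log2 changes from -3.77 to 6.75. The single genes described next were picked after their values were seen. The gene with the largest rise among the 100 went from 6.45 to 45.8 CPM in untreated leaves (median 16.3) to 1480 to 2630 CPM in treated leaves (median 1780). Its log2 change was 6.75 ± 0.51 SE (edgeR adjusted p = 2.6e-06), and it moved from rank 8852 to rank 23. This gene was not abundant in untreated leaves and entered the 100 through its treated level. The gene with the largest fall among the 100 went from 2430 to 3580 CPM down to 136 to 552 CPM (log2 change -3.77 ± 0.37 SE, edgeR adjusted p = 1.1e-05). Among the 500 most abundant, the largest fall took a gene from 473 to 1490 CPM to 10 to 24.2 CPM (log2 change -5.44 ± 0.29 SE, edgeR adjusted p = 2.4e-07). In all, 56 genes rose at least 16-fold to a mean of 100 CPM or more, and 13 genes fell at least 16-fold from such a level.

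The balance of directions differed between classes of abundance. The genes tested were split into 5 classes of equal size by their mean over all 12 libraries. In the lowest class, up to 2.72 CPM, 14.6% of genes rose and 19.6% fell. In the highest class, above 60.7 CPM, 40.7% rose and 28.2% fell. Within that class the most abundant genes did not share this balance, with 178 higher and 195 lower among the top 500 (median log2 change -0.11) and a median of -0.26 in the top 100. Asking for at least a 2-fold change, 14% rose and 18.5% fell in the lowest class, against 18.1% and 11.4% in the highest. The median log2 change of all genes went from -0.07 in the 2 lowest classes to 0.14 in the highest. The changes called in the lowest class were the larger ones, with a median of 2.85 for risen and -2.17 for fallen genes, against 0.91 and -0.86 in the highest class. How far the depth of counts per gene sets these shares was not tested.

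Few genes switched between off and on. Of the risen genes 9 had no count in any untreated library, and their highest treated library ran from 0.254 to 1.55 CPM. None of these 9 had a count in all 6 treated libraries. Of the fallen genes 6 had no count in any treated library, with highest untreated levels of 0.316 to 2.61 CPM. A wider rule asked for under 1 CPM in all 6 libraries of 1 group and 5 CPM or more in all 6 of the other. A single gene met it upward, with 7.29 to 25.9 CPM in treated libraries. Downward 5 genes met it, with log2 changes of -5.82 to -3.81. Most genes that changed were thus read in both states.

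Of the 8951 genes that were not called, 5266 (58.8%) had a 95% interval of the log2 change that stayed within a 2-fold change in either direction. For the others the data do not bound the change that closely. The number in the identifier is that of a chromosome, and on chromosomes 1 to 17 the share of genes called ran from 51% (chromosome 4) to 56.2% (chromosomes 11, 16 and 17). Of 120 tested genes with the number 0, 30.8% were called. Only 4 of 1480 tRNA gene models were tested, and none was called, in libraries made from polyadenylated RNA.

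The concentration of the RNA in abundant genes did not differ detectably in tests that left the plant numbers out. The 100 most abundant genes of a library took 20.1 ± 1.41% of the counts in untreated and 17.8 ± 2.35% in treated leaves (mean ± SD, n = 6; exact permutation p = 0.08, adjusted 0.2). The most abundant 10 took 5.9 ± 0.565% and 5.34 ± 1.24% (n = 6; exact permutation p = 0.38). The number of genes at 1 CPM or more was 16470 ± 29.9 untreated and 16370 ± 84.5 treated (n = 6; exact permutation p = 0.035, adjusted 0.18). These two-sided tests permuted treatment within line over 400 arrangements, in a family of 5 measures, and the smallest p they allow is 0.005. They did not pair libraries by number, and a paired test was not run. In every pair the share of the top 100 was lower after atrazine. It went from 19.6 to 15.5%, 22.8 to 20.5% and 19.4 to 19% in resistant plants 5, 7 and 8. In susceptible plants 5, 6 and 7 it went from 19.2 to 14.4%, 19.1 to 18.4% and 20.4 to 19.1%. Genes at 1 CPM or more were fewer in every pair. The top 10 share rose in resistant 8 and susceptible 6 and fell elsewhere. When libraries were scaled by total counts instead, the change in genes at 1 CPM was -196 after atrazine, with an adjusted exact permutation p of 0.025.

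The response was shared by the plants. In 4779 of the 5435 risen genes (87.9%) all 6 pairs of equal line and number were higher after atrazine, and in 4559 of the 4966 fallen genes (91.8%) all 6 were lower. Over all genes tested, 27.7% were higher in all 6 pairs and 27% were lower in all 6. In 2851 risen and 2885 fallen genes every treated library lay beyond every untreated one. Such separation occurred in 5757 of all genes tested, or 29.7%. Within both lines, treated and untreated libraries stayed apart in the same direction in 7429 genes (38.4%), among them 3704 risen and 3664 fallen genes. These counts use the same libraries as the calls and describe how even the change was.

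The direction of change was compared across lines. Both lines were fitted together and share the estimate of the spread, so the libraries of 1 line bear on which genes are called in the other (6719 resistant calls became 5472 without the susceptible libraries numbered 7). In the resistant line alone 6719 genes were called, 34.7% of those tested (17.7% higher, 17% lower), and 99.1% of them had the same sign of change in the susceptible line. In the susceptible line alone 7536 genes were called (38.9%; 20.6% higher, 18.4% lower), and 98.5% had the same sign in the resistant line. Among genes not called in the resistant line, 78.4% had the same sign in the susceptible one. Without the susceptible libraries numbered 7, the susceptible count was 4566. Called in the same direction in both lines were 5467 genes, which is 81.4% of the resistant and 72.5% of the susceptible list, and 4 genes were called in opposite directions. The latter are other genes than the 4 that passed the test of a line difference described below.

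**Figure D2:**
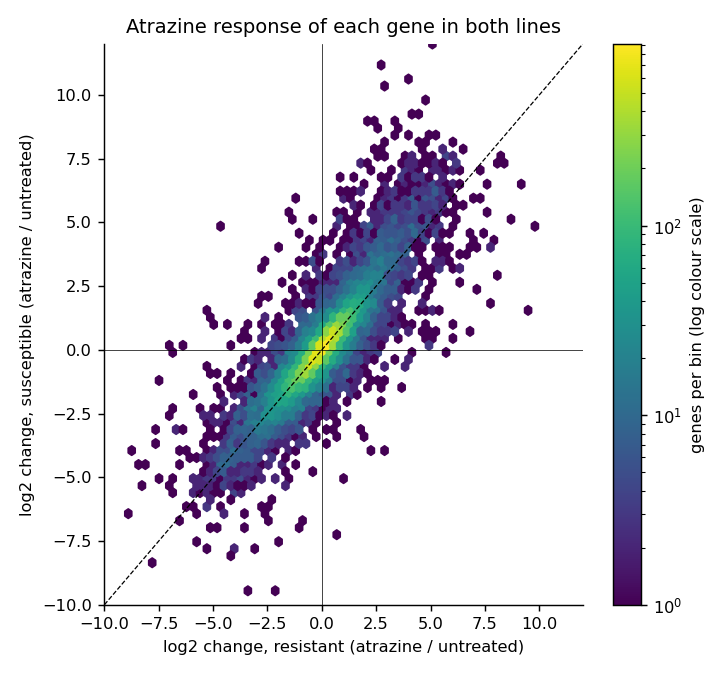
Log2 change after atrazine in the resistant line (x axis) and in the susceptible line (y axis) for the 19352 genes tested, with the number of genes per bin as colour on a log scale and equal change as a dashed line. Most genes lie along the diagonal, and 85.6% of genes had the same sign in both lines.

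The size of the response in single plants was read in genes called in the other line, as the median of log2(CPM + 0.1) against the untreated mean of the plant's own line. Resistant treated plants 5, 7 and 8 stood at 0.99, 0.98 and 0.97 in the 3979 genes that rose in the susceptible line. In the 3557 genes that fell there, they stood at -1.17, -1.15 and -1.13. Susceptible treated plants 5, 6 and 7 stood at 1.23, 1.01 and 1.02 in the 3431 genes that rose in the resistant line, and at -1.66, -1.13 and -1.18 in the 3288 that fell there. Untreated plants, set against the other untreated plants of their line, ran from -0.15 to 0.13 and from -0.22 to 0.26. Treated plants were alike in size within each line except susceptible plant 5, which lay farther out in both lists. On the first principal axis, however, plant 5 lay with the treated resistant plants, and susceptible plants 6 and 7 lay apart. With plants 6 and 7 so alike, which of the susceptible plants is unusual cannot be told. The resistant and susceptible medians come from different gene lists and are not compared with each other.

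**Figure D3:**
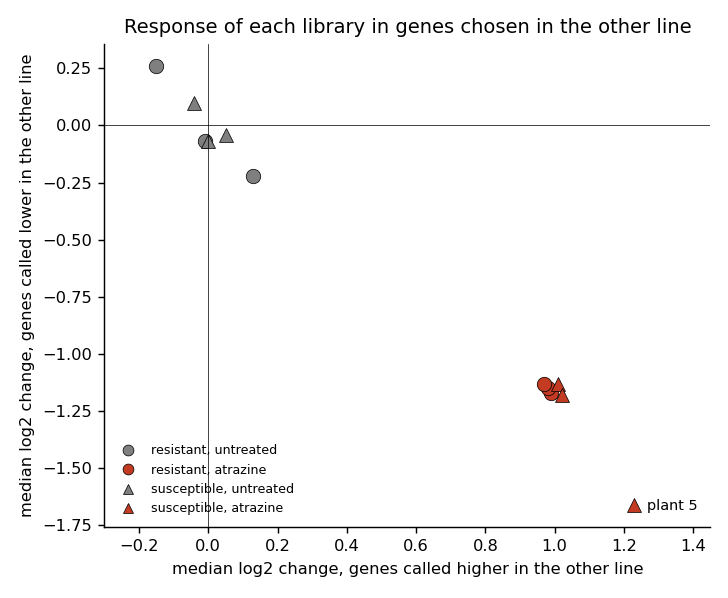
Median log2 change of each library in genes that rose (x axis) and fell (y axis) in the other line, for untreated (grey) and atrazine-treated (red) plants of the resistant (circles) and susceptible (triangles) line. The treated plants cluster near 1 and -1.15, untreated plants lie around 0, and susceptible plant 5 is at 1.23 and -1.66.

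Susceptible plant 5 also differed from plants 6 and 7 in which genes it expressed after atrazine. Against plant 6, 709 genes were at least 4-fold higher in plant 5 and 266 at least 4-fold lower. Of the 709, 503 were genes that rose in the comparison of all plants and 23 were genes that fell. Of the 266, 106 had fallen and 20 had risen. Over all genes tested 28.1% rose and 25.7% fell, and plant 5 itself entered those calls, so these counts are a description. In untreated leaves the same 2 plants differed at least 4-fold in 181 genes. Among the resistant plants, treated pairs differed at least 4-fold in 208 to 317 genes and untreated pairs in 221 to 570. The median SD of log2 level within a group was 0.18 in untreated and 0.37 in treated susceptible plants, and 0.27 and 0.26 in resistant ones.

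The difference between the lines in their response was tested as an interaction. It passed for 4 of 19352 genes (0.0207%) by edgeR, 3 with a higher (0.0155%) and 1 with a lower response (0.00517%) in susceptible plants, while 936 genes (4.84%) had an unadjusted p under 0.05, and DESeq2 called 78. The median SE of the log2 difference was 0.34 over the 14190 genes with a mean of 5 CPM or more, so moderate differences would not pass. Blocking on plant number left an edgeR count of 0, and 1370 genes had an unadjusted p under 0.05. Without the susceptible libraries numbered 7 it also called 0, with 507 at an unadjusted p under 0.05. Single libraries decided the count as well. Without treated susceptible plant 5 it was 70, with 2837 genes at an unadjusted p under 0.05. That fit leaves libraries 6 and 7, which are very alike and may not be separate plants, as the whole treated susceptible group. How far their likeness raised the count was not tested. The count was 0 without treated resistant plant 5 (1040 at an unadjusted p under 0.05) or treated susceptible plant 6 (820). It was 1 without treated resistant plant 8, untreated resistant plant 7 or untreated susceptible plant 5, and 2 without treated resistant plant 7, treated susceptible plant 7 or untreated susceptible plant 7.

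AmaPaChr12Ag196560 had the largest of these differences. In susceptible plants 5, 6 and 7 it stood at 1.34, 2 and 0.696 CPM untreated and at 18.7, 37 and 34.1 CPM after atrazine, and the log2 change was 4.47 ± 0.45 SE. In resistant plants 5, 7 and 8 it stood at 1.4, 2.12 and 2.43 CPM untreated and 1.55, 1.4 and 1.01 CPM after atrazine, where the values overlap and the log2 change was -0.58 ± 0.4 SE. The log2 difference of the responses was 5.06 ± 0.59 SE (edgeR adjusted p = 0.023, and 0.24 with the plant number as a block). Under 3 of the other herbicides its levels in resistant plants were higher. On 1 scaling over all 48 libraries they were 15.6 to 28.1 CPM after chlorsulfuron, 10.7 to 24.8 CPM after 2,4-D and 66.3 to 102 CPM after lactofen, against 1 to 1.5 CPM after atrazine and 2.02 to 5.92 CPM after mesotrione. Over both lines its log2 change was 4.22 ± 0.4 SE after chlorsulfuron (edgeR adjusted p = 7.2e-06), 3.99 ± 0.8 SE after 2,4-D (0.0046) and 4.44 ± 0.5 SE after lactofen (1.6e-05), while it was 0.67 ± 0.57 SE after mesotrione (0.83).

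AmaPaChr04Ag078930 went the other way. In susceptible plants 5, 6 and 7 it stood at 38.7, 57.6 and 32.8 CPM untreated and at 4.9, 3.87 and 4.66 CPM after atrazine. In resistant plants 5, 7 and 8 it stood at 43.4, 42.9 and 61.5 CPM untreated and 35.8, 34.9 and 49.5 CPM after atrazine. The groups overlap, but each treated plant was below the untreated plant of its number, and the log2 change in this line was -0.3 ± 0.24 SE (edgeR adjusted p = 0.37, plant number not in the fit). The log2 difference of the responses was -2.97 ± 0.35 SE (edgeR adjusted p = 0.023, and 0.18 with the plant number as a block). After chlorsulfuron the same split of levels was seen, with 38.9 to 40.4 CPM in resistant and 7.46 to 13.1 CPM in susceptible plants. The lines did not overlap after 2,4-D either, at 27.3 to 29.7 and 7.18 to 15.6 CPM. They overlapped after mesotrione (35 to 47.3 and 23.7 to 51.5 CPM) and lactofen (1.04 to 18.6 and 1.64 to 3.73 CPM). These differences between lines were not tested. In untreated leaves the lines did not overlap in batch 1, with 38.2 to 49.1 CPM in resistant and 15.6 to 26.1 CPM in susceptible plants. They overlapped in batch 2 (42.5 to 60.7 and 32.6 to 56.6 CPM) and in batch 3 (9.83 to 34.6 and 8.27 to 28.1 CPM). The other 2 genes called, described since they complete the count, were raised more in susceptible plants. One had means of 53.1 CPM untreated and 1290 CPM treated there, against 72.9 and 473 CPM in resistant plants (log2 difference 1.9 ± 0.19 SE, edgeR adjusted p = 0.011). The other had 16 and 150 CPM, against 50.7 and 70.5 CPM (log2 difference 2.75 ± 0.25 SE, edgeR adjusted p = 0.0063).

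**Figure D4:**
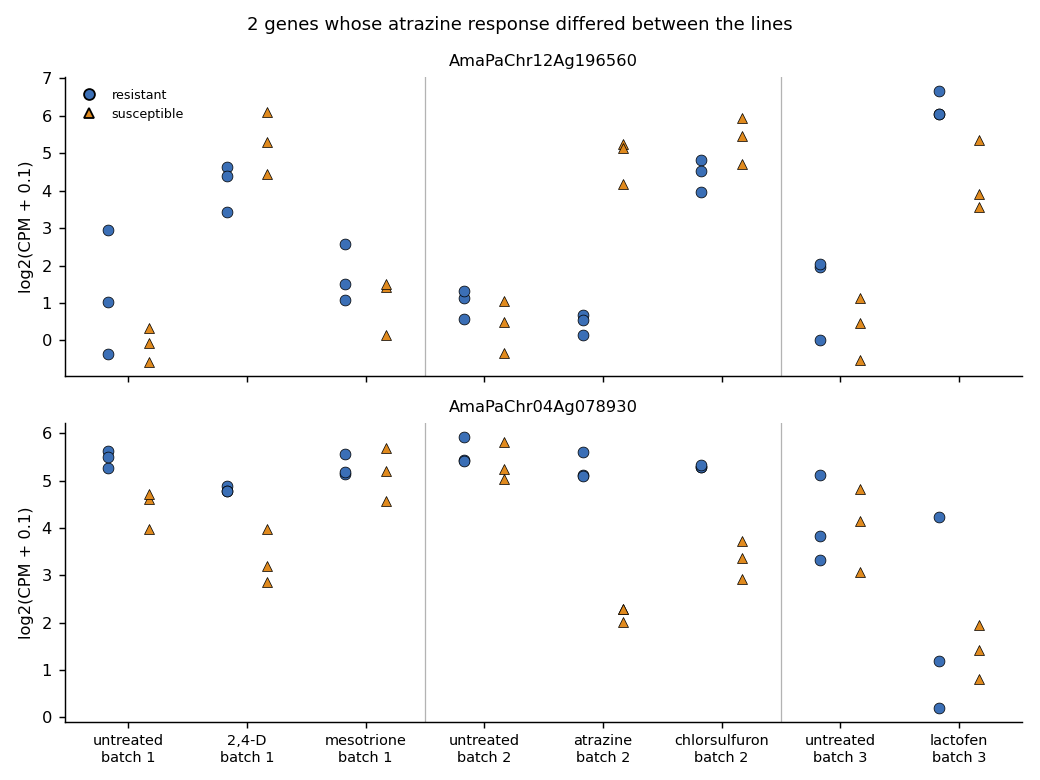
Levels of AmaPaChr12Ag196560 (top) and AmaPaChr04Ag078930 (bottom), as log2(CPM + 0.1) on 1 scaling, in all 48 libraries by treatment and batch, for resistant (circles) and susceptible (triangles) plants. After atrazine the lines do not overlap in either gene, with 1 to 1.5 against 18.1 to 37.8 CPM for the upper gene and 34.2 to 48.8 against 3.96 to 4.8 CPM for the lower.

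Chlorsulfuron inhibits acetolactate synthase, an enzyme that makes precursors of valine, leucine and isoleucine. It was sprayed in the same batch and shares the untreated libraries, so the treated libraries were compared directly. Against those untreated libraries it called 10513 genes (54.3%), 27.5% higher and 26.8% lower. Of 19272 genes tested, 7632 (39.6%) differed between the 2 herbicides, 3550 higher (18.4%) and 4082 lower (21.2%) after atrazine (edgeR, line as a block), and 1710 and 1897 of these by at least 2-fold. The share that was higher after atrazine was 46.5%, but 32.1% with total counts and 51.5% with the size factors of DESeq2, so the balance of directions depended on the scaling. Without the susceptible libraries numbered 7 the test called 5649 genes, 46.3% of them higher after atrazine. AmaPaChr16Ag248240 was at 10.8, 25.9 and 3.26 CPM in resistant and 0.496, 26.6 and 8.38 CPM in susceptible plants after atrazine, and at 0 to 0.228 CPM in all 6 plants after chlorsulfuron. The log2 difference was 7.05 ± 1.03 SE (edgeR adjusted p = 0.00029), or 6.45 without treated susceptible plant 6 and 6.4 with the plant number as a block, and susceptible plant 5 was the lowest of the atrazine-treated plants. AmaPaChr04Ag079320 was at 0.0996 to 0.728 CPM after atrazine and 3.46 to 32.1 CPM after chlorsulfuron (log2 difference -5.85 ± 0.74 SE, edgeR adjusted p = 0.00011). Its untreated level was 0 to 0.149 CPM. Against untreated leaves its log2 change was 1.5 ± 0.75 SE after atrazine (edgeR adjusted p = 0.11). After chlorsulfuron that change was 7.3 ± 0.79 SE (edgeR adjusted p = 1.7e-05). Lactofen, against the untreated leaves of its own batch, changed this gene by 6.98 ± 1.11 SE (edgeR adjusted p = 0.00019). AmaPaChr01Ag024250 was 7.48-fold higher after atrazine than after chlorsulfuron (log2 difference 2.9 ± 0.24 SE, edgeR adjusted p = 9.5e-06). AmaPaChr16Ag247600 had means of 1390 and 1570 CPM after the 2 herbicides, a log2 difference of -0.04 ± 0.39 SE.

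The other 3 herbicides had their own untreated libraries, and the genes that atrazine changed were looked up there. Lactofen, which lets a photosensitising porphyrin accumulate, called 11940 genes (60.6%; 30.9% higher, 29.7% lower) with the line as a block. Of the genes that rose after atrazine, 3394 also rose after lactofen, which is 62.4% of the atrazine list and 55.7% of the lactofen list. Of those that fell, 3126 also fell, 62.9% of the atrazine and 53.5% of the lactofen list, and opposite directions were called for 363 genes that rose and 247 that fell after atrazine. The genes that rose after atrazine had a median log2 change of 1.02 after lactofen and those that fell one of -1.4, against 0.01 over all genes tested with lactofen. Batches 2 and 3 share part of their plant numbers only.

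2,4-D, a synthetic auxin, called 4517 genes (23.5%; 11.7% higher, 11.8% lower). Of the genes that rose after atrazine 1462 (26.9%) also rose after 2,4-D, which is 64.9% of the 2,4-D list, and 1590 fell after both (32% and 70.2%). Opposite directions were called for 89 genes that rose and 139 that fell after atrazine. The median log2 change after 2,4-D was 0.25 for genes that rose after atrazine and -0.38 for those that fell. Mesotrione, which blocks an enzyme on the way to plastoquinone, gave no call by edgeR (1533 genes, 8.18%, had an unadjusted p under 0.05). DESeq2 called 183 genes, or 1.08%, with 67 higher (0.396%) and 116 lower (0.685%). After mesotrione the median log2 change was -0.07 in genes that rose after atrazine, 0.1 in genes that fell and 0 over all genes.

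**Figure D5:**
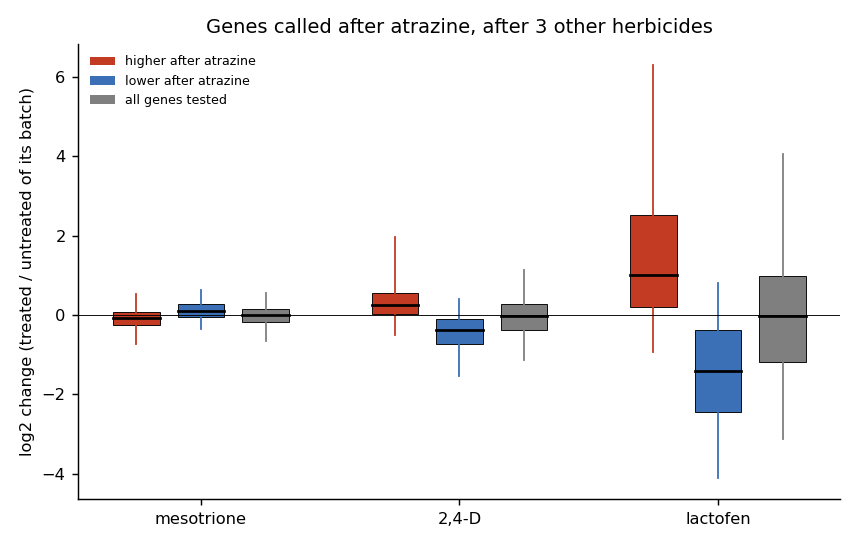
Log2 change after mesotrione, 2,4-D and lactofen, each against untreated leaves of its own batch, for genes that rose (red) or fell (blue) after atrazine and for all genes tested (grey). Boxes span the quartiles with the median as a line, and whiskers the 5th to 95th percentile. The medians of the risen and fallen genes are 1.02 and -1.4 after lactofen, 0.25 and -0.38 after 2,4-D and -0.07 and 0.1 after mesotrione.

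The single genes followed different courses under the other herbicides. AmaPaChr01Ag024250 rose by 0.8 ± 0.24 SE on the log2 scale after 2,4-D (edgeR adjusted p = 0.03) and fell after lactofen (log2 change -1.55 ± 0.46 SE, adjusted p = 0.012), with -0.27 ± 0.27 SE after mesotrione. AmaPaChr16Ag247600 fell after 2,4-D (log2 change -1.75 ± 0.42 SE, edgeR adjusted p = 0.011) and after lactofen (-4.97 ± 0.71 SE, adjusted p = 9e-05). AmaPaChr13Ag209140 fell after both as well, with log2 changes of -2.09 and -4.14 (edgeR adjusted p = 0.015 and 0.0012). AmaPaChr10Ag171570 rose after lactofen by 7.6 ± 0.91 SE (edgeR adjusted p = 2.4e-05). After chlorsulfuron its log2 change was 4.34 (edgeR adjusted p = 0.00017) and that of AmaPaChr13Ag209140 was -4.37 (0.00023). There AmaPaChr16Ag247600 changed by -2.47 (0.00012) and AmaPaChr01Ag024250 by 0.3 (0.11). Between atrazine and chlorsulfuron libraries AmaPaChr10Ag171570 differed by 2.76 (edgeR adjusted p = 0.064) and AmaPaChr13Ag209140 by -1.85 (0.018). The gene that rose from a median of 16.3 to 1780 CPM after atrazine had a log2 change of 7.32 after lactofen (edgeR adjusted p = 0.0071) and of 0.31 after chlorsulfuron. The abundant gene that fell most after atrazine had log2 changes of -4 after lactofen (edgeR adjusted p = 0.00017), -3.14 after chlorsulfuron, -0.45 after 2,4-D and 0.05 after mesotrione.

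Untreated leaves also differed between batches. Batch 2 and batch 1, which share line and plant numbers, differed in 671 genes (3.47%), with 1.57% higher and 1.9% lower in batch 2. Batch 3 and batch 1 differed in 1703 (8.81%), with 5.73% higher and 3.08% lower in batch 3. When the untreated leaves of batch 1 replaced those of batch 2, atrazine called 10377 genes, of which 51% were higher, although treatment and batch then cannot be told apart. In the comparison of untreated batch 3 with batch 1, which uses no library of batch 2, the genes that rose after atrazine had a median log2 change of 0.06, those that fell one of -0.16, and all genes one of -0.03. Of the genes that rose after atrazine 7.33% were higher in untreated batch 3, against 5.74% of all genes. Whether this difference between batches touches the overlap with lactofen was not tested.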

How the data were processed

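Per the labels' protocols, stranded libraries of polyadenylated leaf RNA were read in pairs of 150 bases. The authors deposited whole-number read counts per gene model, unscaled, 1 column per library. Trimmomatic, FastQC, STAR and DESeq2 are named, per the submitters' processing notes. For build, annotation and strand setting: not given in the sources used here. Of counts above 0, 99.1% were even, so a fragment usually adds 2 counts. A line naming no gene held 0 counts and was left out. Copies, overlapping or antisense genes may share reads.

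The 12 libraries were fitted with edgeR 4.0.16 (R 4.3.3), TMM factors, the default low-count filter by line and treatment, robust dispersions, and line plus treatment, with 9 residual degrees of freedom and a typical variation of 0.42 between libraries (root of the common dispersion). Line differences used 4 group means. Genes were called at a Benjamini-Hochberg adjusted p under 0.05. Each SE of an edgeR change is the absolute log2 change divided by the root of the test's F value. These SEs, and the intervals built from them, are therefore approximate. CPM values use TMM factors, and log2 levels add 0.1 CPM. The test with line as a block was checked on simulated counts, in which far fewer genes changed than were called here. The other tests were not simulated. DESeq2 1.42.0 was an alternative.

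Named genes were, per direction, the called gene with the largest log2 change and the one with the largest change in mean CPM, with a mean of 5 CPM or more and no overlap within either line. The level was the mean of the higher group. For the line difference and for chlorsulfuron they were the genes with the largest difference. The members, lists and tests were chosen with earlier results of these data known. Gene lists by product name could not be applied. The labels do not say that equal numbers mark separate or shared plants, so p-values measure the spread between these libraries. Same-numbered libraries deviated together from their group means (correlation 0.36 to 0.53 in the 6 pairs, from the title numbers). Susceptible 6 and 7 also correlated across numbers (0.35 and 0.22). The main fits, the line difference among them, and the permutation tests did not pair libraries by number. Numbers paired libraries only in the descriptions by pair and in the replicate block, an alternative setting that adds plant number to the fit.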

Additional observations from a re-analysis of the deposited data

Results flagged for a closer look

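The response to atrazine differed between the lines for 4 genes by the interaction test. AmaPaChr12Ag196560 had a log2 difference of 5.06 between the susceptible and the resistant response, and AmaPaChr04Ag078930 one of -2.97, each with an edgeR adjusted p of 0.023. Over the other settings the edgeR or DESeq2 adjusted p reached at most 0.24 for AmaPaChr12Ag196560 and 0.39 for AmaPaChr04Ag078930, and at most 0.14 and 0.12 with 1 library left out. The sign held in all of these fits.

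Untreated resistant library 7 stood apart from the other untreated libraries in the share of counts taken by its 100 most abundant genes, at 22.8%. It was the only library that far from the rest in 34 groups of 6 libraries looked at, where chance alone marks about 1 group in 20.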

How the results depend on the processing

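The call of the common response kept its size within 1.5 times under 12 of 13 other settings. Asking for a 2-fold change as well left 5584 genes (2768 higher, 2816 lower), and 3607 (1710, 1897) against chlorsulfuron. With 1 library left out the count ran from 9411 to 10373 (4754 to 5214 higher, 4515 to 5369 lower), and against chlorsulfuron from 6428 to 8223 (3120 to 3913, 3147 to 4442). Without the susceptible libraries numbered 7 the count against chlorsulfuron was 5649. The 4 genes named for the common response and both named against chlorsulfuron kept direction and call in every fit run. With the replicate block the common response had 11261 calls. The line difference had 0 calls under the replicate block (0 higher, 0 lower) and 0 without the susceptible libraries numbered 7, with 1370 and 507 genes at an unadjusted p under 0.05 by edgeR. It had 2 (0 lower) in a fit of all 48 libraries, 78 with DESeq2 (58, 20), and 0 to 70 with 1 library left out (0 to 43, 0 to 27). The 70 came without treated susceptible plant 5, which left the very alike libraries 6 and 7 as that group. AmaPaChr12Ag196560 lost its call in 9 of 12 fits with 1 library left out and AmaPaChr04Ag078930 in 8. The replicate block changed the call of no other result that was refitted with it. The library composition was not tested with the replicate block. Without the libraries numbered 7 the susceptible line had 4566 calls (2429, 2137). With 1 library left out, the resistant line had 4696 to 8570 (2311 to 4135, 2385 to 4435) and the susceptible line 5373 to 7653 (2769 to 4021, 2604 to 3849). The change in genes at 1 CPM or more was -196 with total counts (adjusted exact permutation p = 0.025), and -126 to -86.1 with 1 library left out. The same ranges were -2.81 to -1.6 points for the 100 most abundant genes, -0.849 to -0.154 for the top 10, 68.7 to 133 for genes holding 50% of the counts, and -0.000236 to 0.000276 points for tRNA, where the sign turned. The cause was not tested. With 3 libraries a group, genes of few counts are the least certain.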
